A study of Homo sapiens with 12 samples.

Results

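The OAS family and the MX GTPases, 6 interferon-stimulated antiviral genes, were followed across all groups and single arrays of an experiment on MED12 in HEK293, a human cell line grown from embryonic kidney. The members were taken by gene symbol: OAS1, OAS2, OAS3, OASL, MX1 and MX2 were each measured by 1 row with a single symbol, so 6 of 6 were found, among 22011 rows of which 14432 carry 1 symbol. Each row summarises the probes of 1 transcript cluster, and its value is on the log2 scale. MED12 belongs to the kinase module of Mediator, which connects transcription factors with RNA polymerase II, and the study sets overexpression of MED12, overexpression of a shortened form and RNA interference against it beside GFP alone.

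The 12 arrays fell into 4 groups of 3 biological replicates. The first group received a plasmid from which an H1 promoter makes MED12 shRNA 5, a short hairpin RNA against MED12, in the vector peGFP-C1. The second received full-length MED12 and the third MED12 lacking the PQL and Opa domains at its C-terminus (the PQL/Opa deletion). The control group received nuclear GFP alone. Both MED12 constructs carried a nuclear GFP tag at their N-terminus and an engineered Kozak sequence and sat, like the control, in pcDNA5/TO. All groups were transfected with a lipid reagent 24 hours after plating and taken 48 hours after transfection, when living cells that showed GFP were collected in a sort of 20 minutes per sample. A control hairpin was used in 0 groups of the labels, so hairpin, vector and promoter differ from the control together and cannot be told apart. Expression from the plasmids was transient, and in such bulk samples more cells with a transcript and more transcript per cell cannot be told apart.

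OAS1, OAS2 and OAS3 are enzymes that bind double-stranded RNA and then link ATP into short oligoadenylates, the second messengers of an antiviral pathway. OASL has the same fold but lacks the enzyme activity, carries ubiquitin-like domains at its end and is known to enhance signalling by the RNA sensor RIGI. MX1 and MX2 are large GTPases of the dynamin superfamily. MX1 blocks influenza and other RNA viruses, and MX2 blocks HIV and herpesviruses. All 6 genes are textbook targets of type I and type III interferon through a transcription factor complex that binds a repeated GAAA element in promoters, and several can also be switched on directly by IRF3.

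Because the members are known to share that element, the start regions of those with a RefSeq window were searched for it. RefSeq windows (build GRCh38; 250 bases before and 50 after a start) were at hand for 3 of the 6 members, OAS1, OAS3 and MX1, the last with 3 alternative starts. The wide repeat, GAAA then any 2 bases then GAAA, searched on both strands, was in 3.57% of 35116 windows of all genes. The close repeat, with any 1 base between (GAAANGAAA), was searched after the sequences had been seen and was in 3.12%. The stretches that hold them in the OAS windows and at the first starts of MX1 are shown, all on the + strand. Capitals mark matches to either repeat, and TTTC repeats are matches on the opposite strand. In the upstream stretch of OAS3 and in the first of MX1 a wide and a close repeat overlap.
OAS1, chr12:112906935-112906963: cccttctgagGAAACGAAAccaacagcag
OAS3 upstream, chr12:112938311-112938355: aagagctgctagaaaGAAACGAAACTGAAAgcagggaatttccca
OAS3 at the start, chr12:112938452-112938481: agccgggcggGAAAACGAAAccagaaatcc
MX1 first start, chr21:41420539-41420578: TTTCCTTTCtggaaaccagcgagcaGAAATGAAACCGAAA
MX1 second start, chr21:41426111-41426149: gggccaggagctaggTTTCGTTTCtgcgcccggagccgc
MX1 second start, chr21:41426156-41426194: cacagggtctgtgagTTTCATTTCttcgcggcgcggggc

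OAS3 held 2 wide repeats and 1 close repeat, and OAS1 held 1 close repeat and 0 wide ones. The windows of the MX1 starts, in the order of their coordinates, held 1, 0 and 1 wide repeats and 2, 2 and 0 close ones. Another pattern, TTC then any 3 bases then GAA, was set beforehand like the wide repeat and was in 7.66% of all windows. It had 1 match in OAS1, 0 in OAS3 and 0, 0 and 1 in the MX1 windows, and it is not marked in the stretches above. A match is a description of letters, not a measured binding site.

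The label of each group was checked on MED12 itself. Its log2 value was 3.63, 3.63 and 3.74 in the shRNA arrays, 10.63, 10.66 and 10.75 in the full-length arrays and 8.62, 8.90 and 9.25 in the PQL/Opa deletion arrays, against 4.03, 4.56 and 4.66 in the GFP arrays. Both constructs passed against GFP (limma, adjusted p = 3.67e-08 for full length and 1.54e-06 for the deletion). The hairpin arrays all lay below the GFP arrays, but the difference of -0.75 ± 0.20 (SE) missed the threshold (limma, adjusted p = 0.730). Of the markers of HEK293 cells, all 9 on the list lay above more than 90% of the 220 rows of olfactory receptors with GFP. Those receptors are genes mostly taken not to be used in this line. Of 17 measured markers of blood, endothelial, liver, muscle and connective tissue cells 7 did as well. The lists overlapped, with GFP means of 3.20 to 7.25 (median 4.20) against 1.90 to 4.44 (median 2.93). SALL2, at 3.20, and KRT18, at 3.55, both HEK293 markers, lay below the 95th percentile of the olfactory receptor rows, 3.58. The check of the cell line is thus coarse. Arrays differed in spread, with a standard deviation of log2 values between 1.34 and 1.60; the 3 narrowest were replicate 1 of the shRNA, GFP and PQL/Opa deletion groups. On narrow arrays rows at the low end read higher: the median of the olfactory receptor rows was 2.79 in shRNA replicate 1, against 2.06 to 2.31 in the other shRNA arrays, and 2.46 in GFP replicate 1, against 2.13 and 2.16 in the other GFP arrays.

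Among the OAS enzymes, OAS2 rose with the hairpin and OAS1 had a difference of nearly the same size. OAS2, the middle-sized enzyme of the family, read 3.77, 4.47 and 3.89 in shRNA replicates 1, 2 and 3, 2.41, 2.43 and 2.66 in the full-length arrays, and 2.91, 2.78 and 2.84 in the PQL/Opa deletion arrays, against 2.88, 2.40 and 2.51 in the GFP arrays. All 3 shRNA arrays lay above all 9 others. Its log2 fold change with the hairpin against GFP was 1.45 ± 0.20 (SE), a 2.73-fold rise (limma, adjusted p = 0.0255). OAS2 was the 1 member of 6 called, where 0.0591% of all rows were called higher. That call depends on which arrays enter: of 12 fits that left out 1 array, 9 lost it, with adjusted p-values from 0.05004 to 0.188 (limma) and log2 fold changes from 1.23 to 1.53. The 3 fits that kept it were those without replicate 1 of the shRNA, the PQL/Opa deletion or the GFP group, the narrow arrays, with adjusted p-values from 0.0250 to 0.0461 (limma). Without all 3 narrow arrays it was 1.73 (limma, adjusted p = 0.0386), and with the other 2 groups left out of the model it was not called (limma, adjusted p = 0.686).

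OAS1, the smallest enzyme, read 4.09, 5.06 and 4.50 in the shRNA arrays, 3.24, 3.05 and 3.29 in the full-length arrays and 3.19, 3.40 and 3.16 in the PQL/Opa deletion arrays, against 3.49, 2.85 and 3.17 in the GFP arrays. Here too each shRNA array lay above all 9 others, but the shRNA arrays were spread over nearly 1 log2 unit, more than those of any other group. The log2 fold change against GFP was 1.38 ± 0.24 (SE), or 2.61-fold, and missed the threshold (limma, adjusted p = 0.112). Without shRNA replicate 1, where OAS1 was lowest of the 3, it was 1.61 and passed (limma, adjusted p = 0.0310).

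OAS3, the largest enzyme, which is known to sense long double-stranded RNA, read 4.05, 4.19 and 3.79 in the shRNA arrays, 3.64, 3.34 and 3.44 in the full-length arrays and 3.73, 3.62 and 3.71 in the PQL/Opa deletion arrays, against 3.47, 3.26 and 3.41 in the GFP arrays. All shRNA arrays lay above all others, by a narrow margin over the PQL/Opa deletion arrays. The log2 fold change with the hairpin was 0.63 ± 0.15 (SE), or 1.54-fold (limma, adjusted p = 0.578). OAS3 sits between OAS1 and OAS2 on chromosome 12, and its difference from GFP was under 1 log2 unit while those of both flanking genes were over it; the difference between genes was not tested.

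OASL, the member without enzyme activity, had the smallest difference of the 6. It read 3.69, 3.01 and 3.34 in the shRNA arrays, 2.95, 2.95 and 2.81 in the full-length arrays and 3.07, 2.92 and 2.61 in the PQL/Opa deletion arrays, against 3.19, 2.71 and 2.64 in the GFP arrays. The lowest shRNA array fell below the highest GFP array, so these groups overlapped. The log2 fold change with the hairpin was 0.49 ± 0.21 (SE), or 1.41-fold (limma, adjusted p = 0.983). The narrowest array was replicate 1 in each of the 4 groups, so array spread and replicate number cannot be told apart here. OASL was highest in the narrowest array of its group in 3 of 4 groups, the shRNA, PQL/Opa deletion and GFP groups. This was not particular to OASL: the count was also 3 for OAS3, 2 for OAS2 and MX2, 1 for OAS1 and 0 for MX1. In the shRNA group OASL ran in the reverse order of OAS1, OAS2 and MX1, while OAS3 and MX2 were lowest in replicate 3. There OASL was highest in replicate 1, the array with the highest olfactory receptor level. OASL was lowest in replicate 2, where OAS1, OAS2, OAS3, MX1 and MX2 were highest. Its log2 fold change was 0.32 without shRNA replicate 1, 0.66 without GFP replicate 1 and 0.49 without all 3 narrow arrays, and passed in none of these fits (limma, adjusted p from 0.694 to 1.000). The part of array spread in the OASL values was not tested.

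**Figure D1:**
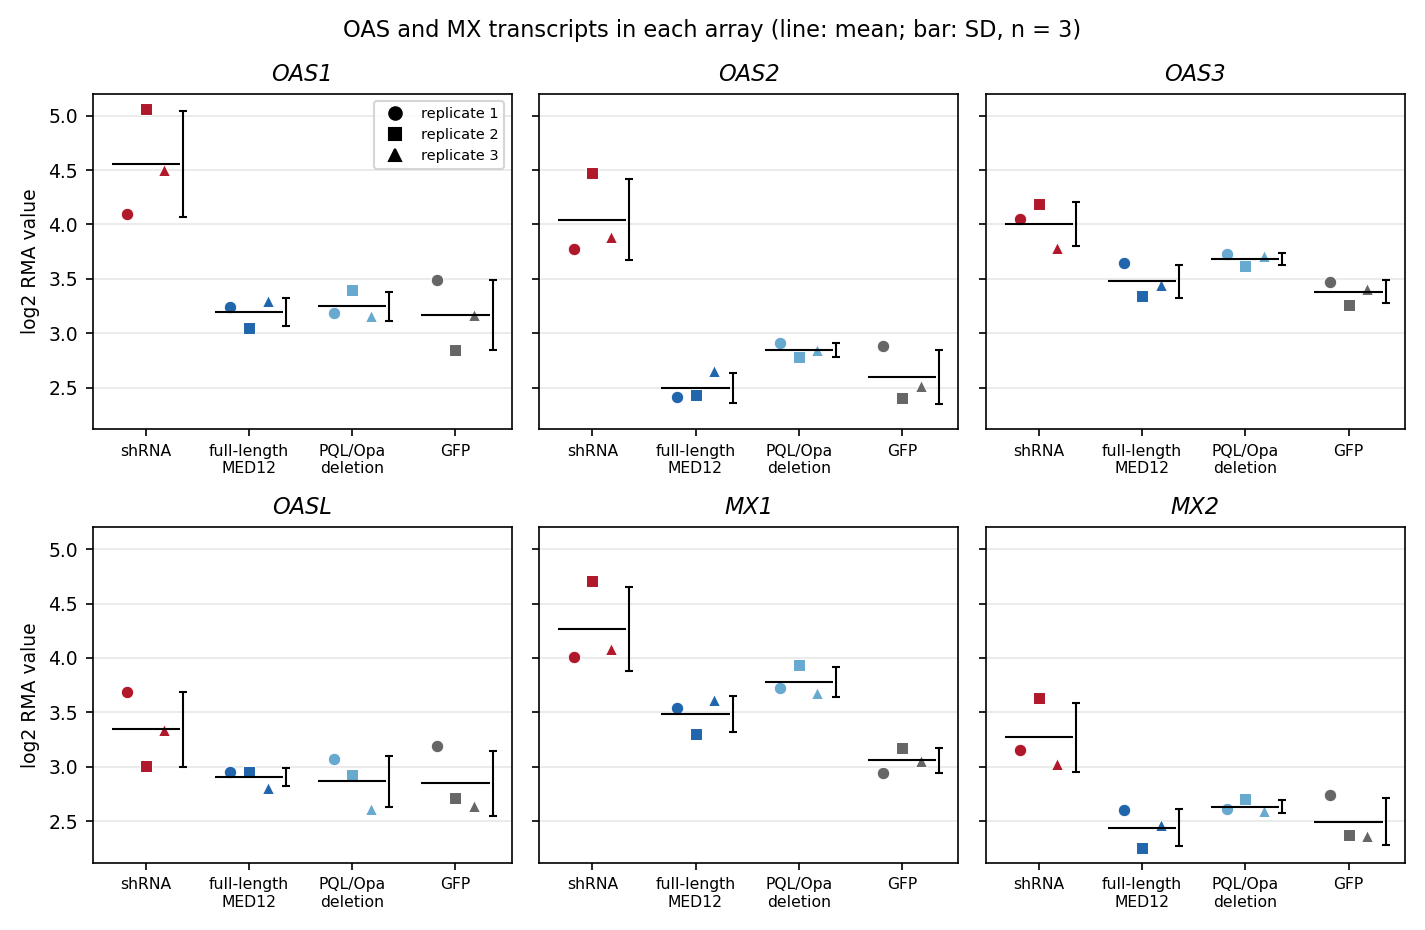
Log2 values of the 6 members (vertical axis) in each of the 12 arrays by group, with circles, squares and triangles for replicates 1, 2 and 3, a line at the mean and a bar of 1 SD (n = 3). The 3 shRNA arrays lie above all 9 other arrays for 5 members, and for OASL the shRNA and GFP arrays overlap.

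Of the MX genes, MX1 differed most. It read 4.01, 4.71 and 4.08 in the shRNA arrays, 3.54, 3.30 and 3.62 in the full-length arrays and 3.72, 3.94 and 3.68 in the PQL/Opa deletion arrays, against 2.95, 3.18 and 3.06 in the GFP arrays. MX1 was the 1 member in which all 9 arrays of the other groups lay above all 3 GFP arrays, an order found in 0.282% of all rows. Its log2 fold change with the hairpin was 1.20 ± 0.20 (SE), or 2.31-fold, and missed the threshold (limma, adjusted p = 0.0762). MX2 read 3.16, 3.63 and 3.02 in the shRNA arrays, 2.60, 2.26 and 2.47 in the full-length arrays and 2.61, 2.70 and 2.59 in the PQL/Opa deletion arrays, against 2.75, 2.38 and 2.37 in the GFP arrays. Its shRNA arrays were all above the 9 others, and its other groups overlapped one another. The log2 fold change of MX2 with the hairpin was 0.77 ± 0.19 (SE), or 1.71-fold (limma, adjusted p = 0.554).

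With GFP most of these rows were dim. Among the 220 olfactory receptor rows, 62.3% had a lower GFP mean than MX2, 66.4% than OAS2, 80.9% than OASL, 89.1% than MX1, 91.4% than OAS1 and 93.6% than OAS3. In the shRNA arrays the same shares were 90.9% for MX2, 97.3% for OAS2, 91.4% for OASL, 98.2% for MX1, 99.5% for OAS1 and 97.3% for OAS3. Rows differ in their probes, so these positions are descriptions; the GFP means of all 6 members, from 2.50 to 3.38, lay below the 95th percentile of the olfactory receptor rows, 3.58. None of the 6 is thus shown to be above background with GFP, and the sizes of their fold changes are uncertain.

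As a family, all 6 members were above 0 with the hairpin against GFP, with log2 fold changes from 0.49 to 1.45 with a median of 0.99, where the median over all rows was 0.02 and 54.4% of rows were positive. All 6 had an unadjusted p under 0.05 in limma, as did 2.47% of all rows in that direction. In 5 of 6, all but OASL, each shRNA array lay above each GFP array, as in 4.71% of all rows, and in the same 5 the shRNA arrays lay above all 9 other arrays, as in 0.981% of rows. With 3 arrays a group the smallest p of an exact permutation test is 0.1, so rows were tested with limma's model. Among the 17 measured markers of other cell types 14 were above 0 in this comparison, with a median of 0.15, and the median of the olfactory receptor rows was 0.13 higher; the mean marker level was 2.88 to 3.32 in the shRNA arrays, 2.76 to 2.97 in the full-length arrays and 2.76 to 3.25 in the PQL/Opa deletion arrays, against 2.85 to 3.16 in the GFP arrays. The highest of these markers was CD68, at 0.46. The part of these shifts in the member values was not tested. Without the 3 narrow arrays the log2 fold changes of the other members were 1.77 for OAS1, which then passed (limma, adjusted p = 0.0386), 0.65 for OAS3, 1.28 for MX1 and 0.95 for MX2.

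**Figure D2:**
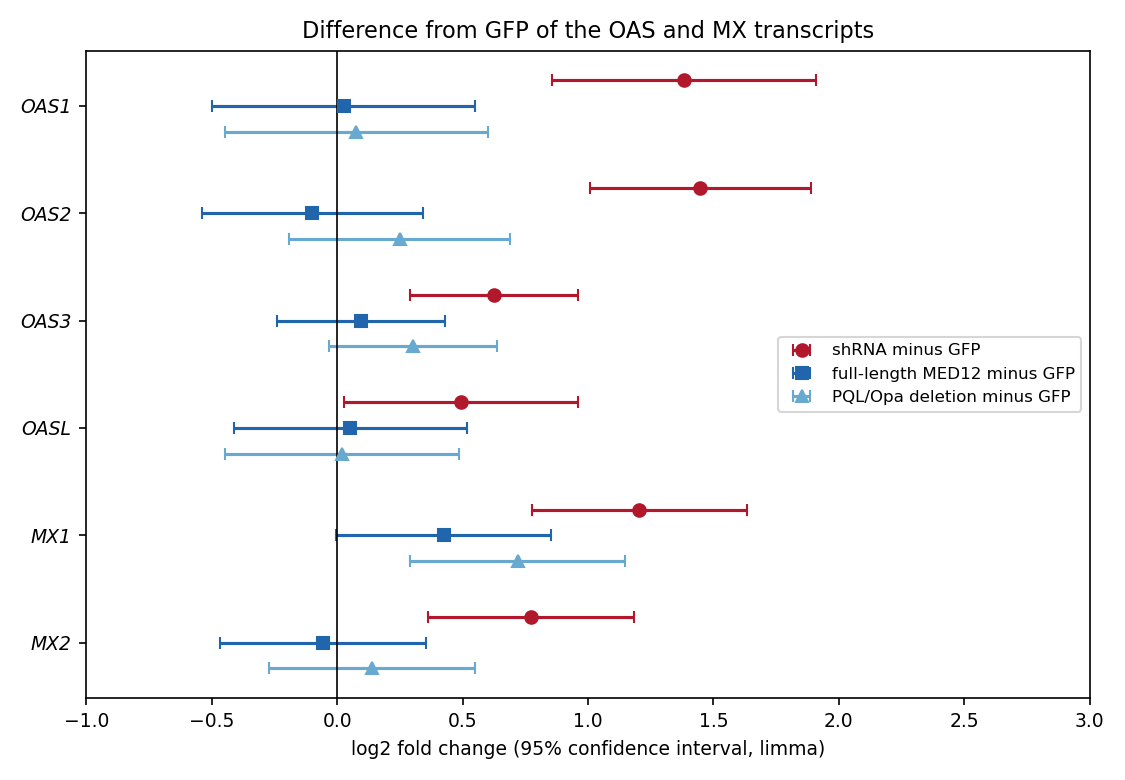
Log2 fold change against GFP (horizontal axis) with its 95% confidence interval from limma for each member, with circles for the shRNA, squares for full-length MED12 and triangles for the PQL/Opa deletion. The 6 intervals of the shRNA lie above 0, those of full-length MED12 all reach 0 or below, and of the PQL/Opa deletion the interval of MX1 lies above 0.

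With full-length MED12 none of the members was called against GFP (limma, 0 of 6; 0 at an unadjusted p under 0.05), where 0.0136% of all rows were called higher and 1.44% had an unadjusted p under 0.05 in that direction. The median log2 fold change was 0.04, with 4 members above 0 and 2 below. OAS1 had 0.03, with a 95% confidence interval from -0.50 to 0.55, and OAS2 had -0.10, with an interval from -0.54 to 0.34. OAS3 had 0.09 (interval -0.24 to 0.43), OASL 0.05 (-0.41 to 0.52) and MX2 -0.06 (-0.47 to 0.36). MX1 stood highest, at 0.42 (interval -0.0039 to 0.85), and its full-length arrays all lay above the GFP arrays, as in 4.03% of all rows.

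With the PQL/Opa deletion 0 of 6 members were called against GFP as well (limma; 1 at an unadjusted p under 0.05, MX1), where 0.00454% of all rows were called higher and 1.75% had an unadjusted p under 0.05 in that direction. All 6 log2 fold changes were above 0, from 0.02 to 0.72 with a median of 0.19. MX1 had 0.72 ± 0.20 (SE; limma, adjusted p = 1.000), with a 95% confidence interval from 0.29 to 1.15. OAS3 had 0.30 ± 0.15 (SE), with an interval from -0.03 to 0.64. In these 2 genes all PQL/Opa deletion arrays lay above all GFP arrays, as in 4.13% of all rows. OAS2 had 0.25 (interval -0.19 to 0.69), MX2 0.14 (-0.27 to 0.55), OAS1 0.08 (-0.45 to 0.60) and OASL 0.02 (-0.45 to 0.48).

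The 3 comparisons above share the GFP arrays, so the groups were also set against each other. The hairpin against full-length MED12 gave positive log2 fold changes for all 6 members, with a median of 0.80. OAS2 rose, by 1.55 ± 0.20 (SE; limma, adjusted p = 0.0108), the 1 member called, where 0.0454% of all rows were called higher. That call was lost without shRNA replicate 3 (limma, adjusted p = 0.0501), full-length replicate 1 (0.0898) or full-length replicate 2 (0.0845). OAS1 had 1.36 ± 0.24 (SE; limma, adjusted p = 0.0864) and passed without shRNA replicate 1, at 1.59 (limma, adjusted p = 0.0358). MX2 had 0.83, MX1 0.78, OAS3 0.53 and OASL 0.44, the last 0.27 without shRNA replicate 1. In all 6 members the shRNA arrays lay above the full-length arrays, as in 6.16% of all rows, and 5 had an unadjusted p under 0.05, as did 2.95% of rows in that direction.

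The hairpin against the PQL/Opa deletion gave 0 calls among the members (limma), where 0.0136% of all rows were called higher, and 5 of 6 at an unadjusted p under 0.05, as for 3.34% of rows in that direction. OAS1 had 1.30 ± 0.24 (SE; limma, adjusted p = 0.160) and OAS2 1.20 ± 0.20 (SE; limma, adjusted p = 0.125). MX2 had 0.63, MX1 0.49, OASL 0.48 and OAS3 0.32. MX1 was 0.26 without shRNA replicate 2, and OASL was 0.30 without shRNA replicate 1. Groups did not overlap in 5 of 6 members, all but OASL, as in 5.74% of all rows. Full-length MED12 against the PQL/Opa deletion gave 0 calls and 0 at an unadjusted p under 0.05 (limma), where 0.00454% of all rows were called higher and 0.795% had an unadjusted p under 0.05 and were lower; 5 of 6 members were below 0, with a median of -0.20. The lowest were OAS2, at -0.35 with a 95% confidence interval from -0.79 to 0.09, and MX1, at -0.30 with an interval from -0.72 to 0.13, and these were the 2 members whose full-length arrays all lay below the PQL/Opa deletion arrays, as in 3.09% of all rows.

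The F test over the 4 groups, which picks no group beforehand, called OAS2 (limma, adjusted p = 0.0278), where 0.0863% of all rows were called. The other members ranked OAS1 (adjusted p = 0.181), MX1 (0.261), MX2 (0.683), OAS3 (0.873) and OASL (1.000; limma in each). Without 1 array the call of OAS2 was lost in 11 of 12 fits and kept without GFP replicate 1. The order of the group means was not the same in all members. The shRNA group was highest in each of the 6, and the PQL/Opa deletion group was next in all but OASL, where full-length MED12 was, by 0.03. GFP was lowest in OAS1, OAS3, OASL and MX1, and full-length MED12 was lowest in OAS2 and MX2. Below the shRNA group, neighbours in these orders differed by at most 0.42 (MX1, full-length against GFP), and none of these steps passed (limma).

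Over the 12 arrays the members followed one another except OASL. Pearson correlations of log2 values over the 15 pairs ran from 0.36 to 0.97 with a median of 0.83; the arrays share their groups, so these describe mainly the group pattern. With the group means taken out, OAS1 and OAS2 still correlated at 0.88, and the 10 pairs without OASL ran from 0.39 (OAS3 with MX1) to 0.88. The 5 pairs with OASL ran from -0.61 with MX1 to about 0 with OAS3 (-0.00078).

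The genes closest in pattern to each member, by Pearson correlation over the 12 arrays among 14426 rows with 1 symbol, were 3 for each member. IFITM1, which hinders the entry of viruses, was among the 3 closest to OAS1 (0.96), OAS2 (0.98), OAS3 (0.90) and MX2 (0.95). TRIM22, an antiviral ubiquitin ligase, was among those of OAS1 (0.96), OAS2 (0.97) and MX2 (0.90), and ERAP2, a peptidase that trims antigens, among those of OAS2 (0.94) and MX2 (0.89). The third gene for OAS1 was APOL1 (0.93), and OAS3 had FZD4, a Wnt receptor (0.90), and IFI44 (0.89). MX1 had PARP14 (0.96), the nuclear body protein SP110 (0.96) and IFIT1 (0.94). OASL had NCKAP1L (0.94), XKRX (0.93) and GRAMD2B (0.93). With the group means taken out, the 3 genes of OASL stayed at 0.89 to 0.97. IFI44 then fell to 0.13 with OAS3, and ERAP2 to 0.36 with OAS2 and 0.35 with MX2. The remaining pairs ran from 0.46 (TRIM22 with MX2) to 0.86 (PARP14 with MX1). With the hairpin NCKAP1L had a log2 fold change of 0.20, XKRX of 0.31 and GRAMD2B of 0.32, and 0 of these 3 passed (limma).

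**Figure D3:**
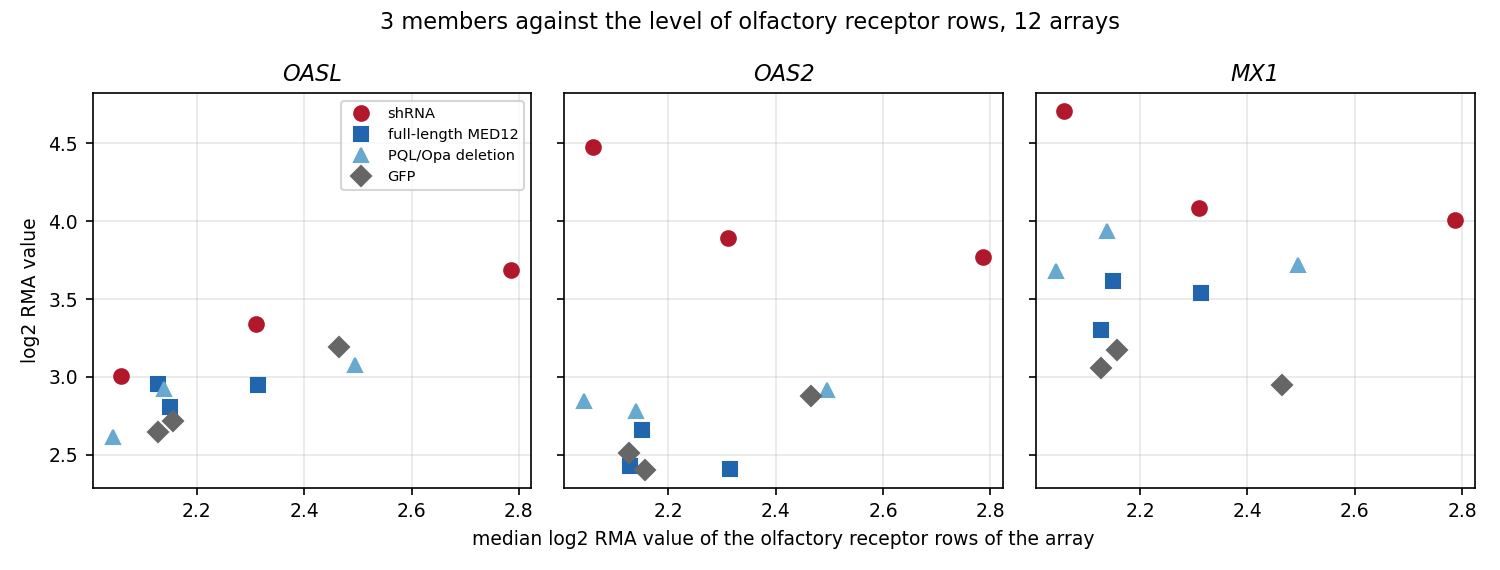
Log2 value of OASL, OAS2 and MX1 (vertical axis) against the median log2 value of the 220 olfactory receptor rows of the same array (horizontal axis), 12 arrays, with circles for shRNA, squares for full-length MED12, triangles for the PQL/Opa deletion and diamonds for GFP. In the shRNA group OASL is 3.01, 3.34 and 3.69 where that median is 2.06, 2.31 and 2.79, while OAS2 and MX1 are highest at 2.06.

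The lists of related genes were described for the hairpin against GFP, where 0.0681% of all rows were called in either direction and 5.04% had an unadjusted p under 0.05. Other sensors of double-stranded RNA and their adaptors (11 of 11 measured) had 9 above 0 and a median of 0.29; 0 were called (limma; 5 at an unadjusted p under 0.05). The highest of them was RIGI, at 1.74, and the lowest TICAM1, an adaptor of TLR3, at -0.07.

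Upstream of the members, 9 of 21 interferon genes were measured, with a median of 0.16, from -0.18 (IFNK) to 0.80 (IFNA6), and 0 called (limma; 1 at an unadjusted p under 0.05). Interferon receptors, kinases, transcription factors and feedback inhibitors (15 of 19 measured) had a median of 0.10, from -0.25 (IFNGR1) to 0.35 (IRF3), and 0 called (limma; 1 at an unadjusted p under 0.05). Other interferon-stimulated genes (29 of 31 measured) had 28 above 0 and a median of 0.84, and 9 were called higher (limma; 22 at an unadjusted p under 0.05). The 5 with the smallest p were IFI44 at 2.49, RSAD2 at 2.60, IFIT2 at 2.63, SAMD9 at 1.49 and IFIT3 at 2.38. These 5, picked by p, were larger than the largest difference among the OAS and MX members, 1.45, SAMD9 only slightly. The median of the list, 0.84, was below that of the members, 0.99, and its lowest gene was CCL5 at -0.0031. Differences between genes were not tested. With full-length MED12 21 of these 29 genes were above 0, with a median of 0.096 and 0 called (limma, 3 at an unadjusted p under 0.05). Of all rows 48.6% were above 0 there and 2.80% had an unadjusted p under 0.05. With the PQL/Opa deletion 24 were above 0, with a median of 0.27 and 0 called (limma, 9 at an unadjusted p under 0.05). The shares of all rows there were 48.4% and 3.46%.

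Relatives by structure held 0 called genes. Of the dynamin superfamily, 10 of 15 were measured, with a median of -0.01, 4 above 0 and 0 called (limma; 0 at an unadjusted p under 0.05), from -0.84 (ATL3) to 0.43 (GBP3). Proteins with the fold of OAS (14 of 15 measured) had a median of -0.13, from -0.45 (ILF2) to 0.42 (MIEF2), and 0 called (limma; 0 at an unadjusted p under 0.05). Of ubiquitin-like genes, which share that domain with OASL, 6 of 11 were measured, with a median of -0.0044, and ISG15 was the highest at 1.11; 0 were called (limma; 1 at an unadjusted p under 0.05).

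Genes beside the members on the chromosomes held 0 called genes as well. By the order of protein-coding genes in RefSeq, OAS1, OAS3 and OAS2 lie next to each other on chromosome 12 between RPH3A and DTX1, and MX2 and MX1 next to each other on chromosome 21 between FAM3B and TMPRSS2; OASL lies elsewhere on chromosome 12 beside P2RX7. Of 23 listed neighbours 18 were measured, 16 above 0, with a median of 0.11 and a range from -0.27 (SPPL3) to 0.32 (BACE2), and 0 were called (limma; 0 at an unadjusted p under 0.05). The flanking genes had 0.17 (RPH3A), 0.11 (DTX1), 0.12 (FAM3B), 0.15 (TMPRSS2) and 0.07 (P2RX7).

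**Figure D4:**
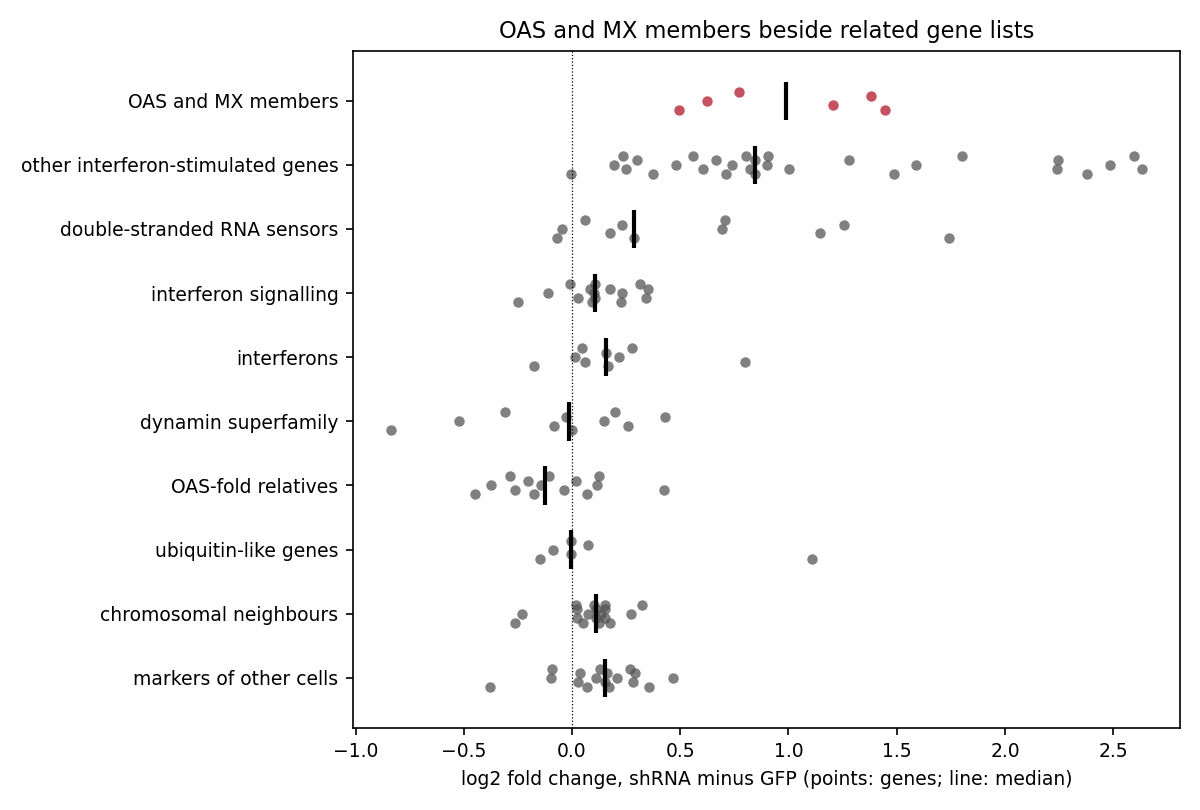
Log2 fold change with the shRNA against GFP (horizontal axis) for the 6 members and for each measured gene of 9 related lists, with a line at each list's median. The members lie between 0.49 and 1.45, and the neighbours on the chromosome between -0.27 and 0.32.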

How the data were processed

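Amplified, biotin-labelled RNA of sorted HEK293 cells was hybridised to 12 arrays of 1 colour. The deposited values are log2 values, 1 per row and array; Partek, RMA and the build hg18 are named in the submitters' processing notes, while the probe set level, background option and filters are not given in these sources. The values were used as deposited, with 0 columns left out. Symbols came from the platform annotation: 14432 rows had 1 symbol, 2408 several and 5171 none, and 14404 of the first were found by Entrez identifier in RefSeq (GRCh38, used for names, gene order and promoters). Array medians ran from 3.39 to 3.51.

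The model, lmFit and eBayes of limma (3.58.1, under R 4.3.3), held 4 group means over the 12 arrays, with 8 residual and 3.52 prior degrees of freedom. Tests were two-sided, over 6 pairs of groups, with Benjamini-Hochberg adjustment over 22011 rows and a threshold of 0.05; the F test covers the 3 contrasts with GFP. The number of arrays limits the precision; over all rows the median standard error was 0.23. The labels call the replicates biological without saying what a number marks. After the group means were removed, arrays sharing a number correlated at 0.10 to 0.23 between full-length MED12 and GFP and at 0.15 to 0.47 between the PQL/Opa deletion and GFP, each value above 0.1; between the other groups at least 1 value was below 0.1. The fit was tested on simulated data.

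The members and lists were chosen with earlier results of these data known. Named are the members, MED12, up to 5 called genes per list by smallest p, and the 3 rows closest to each member by correlation; the ends of list ranges, ISG15 and the flanking genes were named after values were seen. Alternatives were leaving out each array, a replicate block, quantile normalization, scaling to a common spread, a variance trend, array weights, 2 filters on dim rows, fits of 2 groups, and, chosen after seeing the data, leaving out the 3 narrowest arrays.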

Additional observations from a re-analysis of the deposited data

How the results depend on the processing

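In the 3 comparisons of the hairpin, the member log2 fold changes were above 0 in all 366 alternative values. Many of these could not differ from the main fit. The replicate block, the variance trend, the row filters, the 2 groups alone and leaving out an array of a group not compared return the same log2 fold change. The count of signs is thus largely fixed in advance. Of the 366 values, 326 kept their side of the threshold, 25 newly passed and 15 lost the call. In the 3 comparisons without the hairpin 0 of 366 values passed and 19 changed sign. For shRNA against GFP the count of members called, 1, was 0 with the replicate block (OAS2, adjusted p = 0.0645). It was 0 with the 2 groups alone, and 2 above the 25th percentile of rows or without the 3 narrow arrays. It was 3 after quantile normalization, and 0 to 2 leaving out 1 array. Both row filters used the mean over all 12 arrays, the shRNA arrays included, so members high in that group pass more easily. OAS2 lay at percentile 20.6 of rows with GFP and 72.6 with the shRNA, OAS1 at 39.6 and 83.4, and MX1 at 35.3 and 78.1. The counts after these filters are thus not separate support. The filter at the median level kept 3 of 6 members, left out OAS2 and called MX1. For shRNA against full-length MED12 the count, 1, was 0 with that filter and with the 2 groups alone. It was 2 after quantile normalization, common spread or without the narrow arrays, and 0 to 2 leaving out 1 array. For shRNA against the PQL/Opa deletion the count, 0, was 2 after quantile normalization and 4 with array weights. For the F test the count, 1, was 0 with the replicate block, the median filter or without the narrow arrays, 2 after quantile normalization, 6 with array weights and 0 to 1 leaving out 1 array. The replicate block changed no other member's call. With the group means removed, shRNA and GFP arrays of replicates 1, 2 and 3 correlated at 0.46, 0.27 and 0.022. For the shRNA and the PQL/Opa deletion these values were 0.45, 0.28 and 0.052, and for the shRNA and full-length MED12 0.20, 0.052 and 0.061. These values do not settle whether the numbers pair the shRNA arrays with another group. The OAS2 call against GFP depends on that choice, and the cause of its loss under the block was not tested.

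Differences that changed sign were all near 0. Against GFP with full-length MED12, leaving out 1 array gave -0.13 to 0.19 for OAS1, -0.20 to 0.042 for OAS2, -0.050 to 0.22 for OASL and -0.14 to 0.069 for MX2; OAS2 was 0.060 and MX2 0.046 with array weights, and 0.042 and 0.069 without the narrow arrays. With the PQL/Opa deletion they were -0.083 to 0.24 for OAS1 and -0.085 to 0.19 for OASL. For full-length MED12 against the PQL/Opa deletion they were -0.10 to 0.024 for OAS1 and -0.093 to 0.14 for OASL. Rows called for shRNA against GFP, 15, were 23 after quantile normalization, 4 with the 2 groups alone and 5 to 20 without 1 array. Those for shRNA against full-length MED12, 23, were 38 with the block and 37 after quantile normalization. They were 2 with the 2 groups alone and 9 to 39 without 1 array. Those for shRNA against the PQL/Opa deletion, 7, were 21 after quantile normalization and 13 at a common spread. They were 1 with the 2 groups alone and 3 to 20 without 1 array. The other 3 comparisons had 0 to 6 rows in all alternatives, except 20 for the PQL/Opa deletion against GFP with array weights.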
